A study of Mus musculus with 16 samples.

Results

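MHC class II molecules carry peptides from engulfed material to CD4+ T cells, and 8 genes of this presentation pathway were followed in mouse dendritic cells given a probiotic bacterium. They were H2-Aa, H2-Ab1, H2-Eb1, H2-DMa, H2-Oa, Cd74, Ciita and Rfx5. A probe set, the group of short probes on the array that reads one transcript, was taken when the probe table gave one of these symbols as its only gene. This found 16 of 45101 probe sets, which belonged to 8 of the 18193 genes measured. H2-Aa had 4 of them, H2-Ab1 and Ciita 3 each, H2-DMa 2, and the others 1 each.

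A class II molecule is a pair of an alpha and a beta chain that assembles with the invariant chain, Cd74, which blocks its groove and steers it to endosomes. Endosomal proteases degrade the invariant chain to a short remnant. The H2-DM heterodimer then exchanges that remnant for antigen peptides, and H2-O restrains H2-DM. Transcription of the class II, invariant chain and H2-DM genes depends on Ciita, a coactivator recruited to their promoters by a complex of Rfx5, Rfxap and Rfxank together with NF-Y and CREB proteins. Dendritic cells are known to transcribe class II genes strongly while immature and to reduce this transcription as they mature.

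The cells were grown for 8 days from bone marrow of wild-type C57BL/6 mice with 15 ng/ml GM-CSF, a growth factor that yields dendritic cells along with other myeloid cells. The non-adherent immature cells were put into fresh medium with 10 ng/ml GM-CSF, and all 6 groups shared this. 3 groups received Lactobacillus acidophilus NCFM at 10 µg/ml for 4, 10 or 18 h, with 3 arrays each. Of the control groups without bacteria, the 4 h group has 3 arrays and the later ones have 2 each. Whether replicates are different animals or cultures is not in the labels, and the p-values therefore reflect the spread of these samples alone.

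Medians of the 16 arrays were 162 to 167 and the upper quartile was 336 to 356 on the 9 NCFM arrays and 370 to 392 on the 7 control arrays, without overlap. The part of this in the changes of bright genes was not tested beyond the quantile normalization given with the alternatives. Precision is limited by how many arrays each group has. In every group the array numbered 1 stood apart from the others, with the Y-linked gene Eif2s3y higher by 3.89 on the log2 scale on average and Xist lower (-4.32), in 6 of 6 groups. Of the dendritic cell markers, 7 of 8 measured lay above the array median on all 16 arrays, as did 8 of 8 macrophage and 6 of 8 granulocyte markers. Fewer did for B cells (1 of 7), T cells (1 of 4), plasmacytoid dendritic cells (2 of 5) and mast cells and basophils (1 of 6). The array median is over all probe sets while a gene is read by its brightest, so this bar is low. The share of all genes above it was not counted. Cd79a, which defines B cells, another cell type rich in class II, read 105 to 127, under the median of every array, and the summed level of the 7 B cell markers was 978 to 1124 over all arrays.

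Class II promoters are known for an X box, bound by the Rfx complex, and a Y box, bound by NF-Y. The stretches before the gene starts are shown because the members differ in matches to the letters searched. RefSeq windows of GRCm38.p6 matched 5 of the 8 genes (H2-Aa, H2-Eb1, H2-DMa with 2 listed starts, H2-Oa and Rfx5), and none was listed for H2-Ab1, Cd74 and Ciita. Both strands of the 250 bases before each start were searched for TGATTGG, the core of the Y box, and for AACNNATG, a core of the X box; its letters were chosen after these windows had been read. The Y letters occurred in 7.23% of 32851 windows, the X letters in 7.71% and both in 0.664%. H2-Eb1 held both, with the Y match starting 61 bases before the start and the X match 28 bases upstream of it. H2-Aa and H2-Oa held only the Y letters, 50 and 45 bases before the start, and Rfx5 held them at 2 places on the other strand. Neither window of H2-DMa held either, while H2-DMb2, which encodes a beta chain partner of H2-DMa, held both, 29 bases apart. Only the first of the 2 H2-DMa windows is printed below, and which start these cells use was not tested. A match of letters is a description and not a site, and the lack of a match does not show that a box is absent. Upstream of their Y match H2-Aa and H2-Oa hold AAC followed by letters other than those searched. The lines below give 130 to 11 bases before the start, 5′ to 3′, with matches in capitals, X first where there are 2. H2-Aa lies at chr17:34287834-34287953 on the minus strand, and on the plus strand H2-Eb1 lies at chr17:34305737-34305856, H2-Oa at chr17:34092249-34092368, H2-DMa (its first listed start) at chr17:34122702-34122821 and H2-DMb2 at chr17:34145119-34145238.
H2-Eb1: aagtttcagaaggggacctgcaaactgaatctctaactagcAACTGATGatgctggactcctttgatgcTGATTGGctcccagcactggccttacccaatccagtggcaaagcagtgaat
H2-DMb2: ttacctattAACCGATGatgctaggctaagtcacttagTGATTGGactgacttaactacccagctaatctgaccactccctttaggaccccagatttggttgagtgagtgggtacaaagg
H2-Aa: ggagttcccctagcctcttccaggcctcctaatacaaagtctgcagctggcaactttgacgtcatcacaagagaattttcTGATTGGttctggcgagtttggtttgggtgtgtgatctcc
H2-Oa: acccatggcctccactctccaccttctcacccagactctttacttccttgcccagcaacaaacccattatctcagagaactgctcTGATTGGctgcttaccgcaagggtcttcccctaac
H2-DMa: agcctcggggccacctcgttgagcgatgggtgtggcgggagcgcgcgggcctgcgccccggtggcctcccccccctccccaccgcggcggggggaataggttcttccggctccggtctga

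Changes are given as log2 of NCFM over control with the standard error (SE) from limma, fitted to the whole table of 18193 genes. Called means a Benjamini-Hochberg adjusted p under 0.05. The array number was not a term in this fit, and results with it as a block are named as such. Each comparison has 3 NCFM arrays against 3 control arrays at 4 h and against 2 at 10 and 18 h. At 10 and 18 h array number 1 is thus 1 of 2 controls but 1 of 3 NCFM arrays. An offset of that array therefore enters the main changes at those times. With the block H2-DMa stood at -1.30 and -1.45 at 10 and 18 h, against -1.38 and -1.53 in the main fit. Rfx5 stood at 0.43 and 0.29, against 0.51 and 0.36. H2-DMa fell at every time, Rfx5 rose at 4 and 10 h, Ciita and Cd74 fell at 18 h, and the other 4 genes were not called at any time. At 4 h, 2 of the 8 genes were called, 1 in each direction, where 18.3% of all genes were called, 5.27% higher and 13.1% lower. At 10 h it was again 1 in each direction, against 24.7% of all genes, 8.21% higher and 16.5% lower. At 18 h 3 of 8 were called, all lower, against 23.7% of all genes, 7.4% higher and 16.3% lower. The median change of the 8 genes was 0.032, -0.013 and -0.19 at 4, 10 and 18 h, beside -0.0066, 0.0083 and 0.0022 for all genes. With the dimmer genes left out the all-gene median was -0.162, -0.19 and -0.174, so that at 18 h the members' median lay near that of the brighter genes.

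Separation of the arrays is a further description, and it comes more easily with 2 controls than with 3. NCFM and control arrays did not overlap for 3 of the 8 genes at 4 h, where the share of all genes was 36.5% (13.8% higher and 22.7% lower), for 2 at 10 h, against 52.1% (23.2% and 28.9%), and for 7 at 18 h, against 47.2%. At 18 h 6 genes had all NCFM arrays below both controls (26.1% of all genes did) and Rfx5 had them above (21.1%). H2-Oa was the exception.

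**Figure D1:**
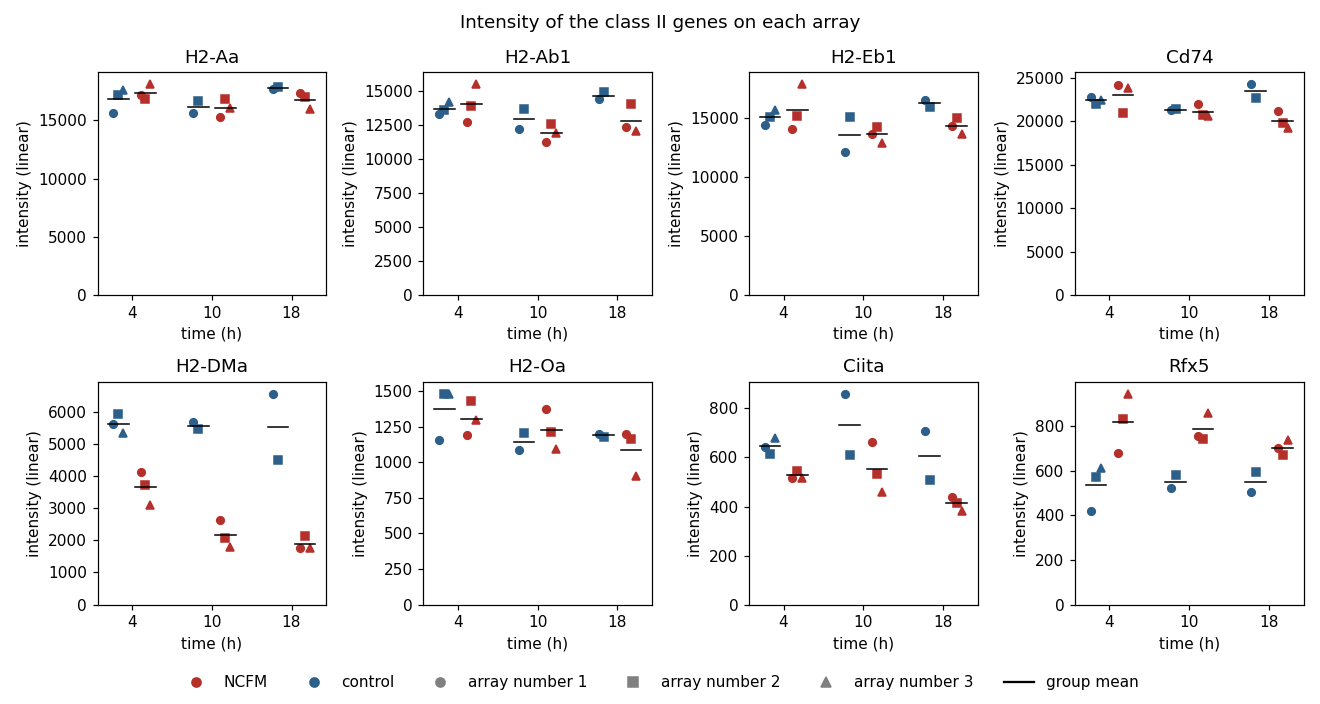
Linear intensity of the probe set that stands for each of the 8 genes on every array, against time, with control arrays in blue, NCFM arrays in red, the array number as the symbol and group means as black lines. H2-DMa drops from control values of 4479 to 6539 to NCFM values of 1748 to 2120 at 18 h, while H2-Aa stays between 15309 and 18074 on all 16 arrays.

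H2-DMa, the alpha chain of the peptide exchange factor, had the largest fitted change of the 8 genes at each time. At 4 h its intensity (probe set 1422527_at) was 5614, 5925 and 5329 on the control arrays and 4114, 3726 and 3103 with NCFM. At 10 h the controls read 5676 and 5449 and the NCFM arrays 2620, 2063 and 1803. At 18 h they read 6539 and 4479 against 1771, 2120 and 1748. Every NCFM array lay below every control array at all 3 times.

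The change of H2-DMa was -0.63 ± 0.16 (SE) at 4 h (limma adjusted p = 0.0166), -1.38 ± 0.18 at 10 h (0.000196) and -1.53 ± 0.18 at 18 h (0.000107). On the linear scale it fell by 35.5% at 4 h, fell by 61.6% at 10 h and fell by 65.4% at 18 h. The share of all genes with a lower change was 6.84%, then 1.31%, then 1.04%. The calls at 10 and 18 h held under all 29 alternatives tried, with adjusted p up to 0.00852 and 0.0149. Leaving out control 4 h replicate 2 ended the 4 h call (-0.59, adjusted p = 0.0635), as did leaving out NCFM 4 h replicate 3 (-0.52, 0.0663).

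RNA was taken from whole cultures, so fewer cells of a type and less RNA per cell cannot be told apart. The summed level of the 8 measured granulocyte markers was 28762 to 41300 in controls and 8021 to 36162 with NCFM at 4 h, where the ranges overlap, 39441 to 47741 and 13109 to 34255 at 10 h, and 22978 to 25800 and 5692 to 17111 at 18 h. Of these 8 markers limma called 0, 3 and 2 lower, beside 13.1%, 16.5% and 16.3% of all genes, and the sum itself was not tested. The genes called were Ltf and Prtn3 at 10 and 18 h and Elane at 10 h. The brightest, S100a8 (1595 to 17997 over all arrays) and S100a9 (1020 to 16462), weigh most in the sum and were not called at any time. The 8 dendritic cell markers summed to 16617 to 20105 in controls and 20805 to 26302 with NCFM at 4 h, 15778 to 21742 and 24369 to 33003 at 10 h, and 19116 to 19538 and 12511 to 28641 at 18 h. Fscn1 (6164 to 15467 over all arrays) and Ccr7 (2721 to 9979) were the brightest of the 8, so this sum follows them most. Limma called 0 of the 8 at 4 h, 1 in each direction at 10 h and 1 lower at 18 h. The shares of all genes called were 18.3%, 24.7% and 23.7%. Itgax, which encodes the dendritic cell integrin CD11c, fell at 10 h (-0.61, adjusted p = 0.0262) and 18 h (-0.81, 0.00622). Fscn1, which encodes the actin-bundling protein fascin, rose at 10 h (0.98, 0.0238). The 8 measured macrophage markers summed to 36210 to 59576 in controls and 34824 to 67357 with NCFM at 4 h. At 10 h the sums were 31907 to 62377 and 32098 to 54933, and at 18 h 46691 to 69563 and 38819 to 56207. These ranges overlapped at every time. Of the 8, 1, 2 and 1 were called higher (Fcgr1 at each time, Mertk at 10 h) and 0 lower. Of all genes 5.27%, 8.21% and 7.4% were called higher. The part of these cell types in the fall of H2-DMa was not tested.

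A second, dimmer probe set of H2-DMa, 1459872_x_at, also read lower with NCFM. It gave 554, 510 and 404 in controls and 421, 377 and 284 with NCFM at 4 h, 429 and 412 against 318, 307 and 238 at 10 h, and 474 and 383 against 252, 293 and 232 at 18 h. The arrays overlapped at 4 h and were apart at 10 and 18 h. Fitted with every probe set on its own and adjusted over all of them, its change was -0.45 ± 0.17 (SE; adjusted p = 0.107), -0.56 ± 0.19 (0.0576) and -0.72 ± 0.19 (0.0184). Both probe sets of the gene were called at 18 h. Over all 16 probe sets of the 8 genes, 2 were called at 4 h, 2 at 10 h and 4 at 18 h, beside which 12.9%, 18.2% and 17.2% of all probe sets were called.

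H2-DMb2, a beta chain that pairs with H2-DMa, varied more with the array number. Its brightest probe set, 1443687_x_at, read 4658 and 2748 in the 10 h controls against 3423, 1826 and 1573 with NCFM, and 4698 and 2139 in the 18 h controls against 2368, 1811 and 1399. The groups overlapped at both times, and array 1 of each group lay above the rest, by 0.72 on the log2 scale on average, in 6 of 6 groups. The change was -0.13 ± 0.35 at 4 h (limma adjusted p = 0.84), -0.74 ± 0.39 at 10 h (0.189) and -0.80 ± 0.39 at 18 h (0.163). With the array number as a block it was -0.60 at 10 h (adjusted p = 0.0243) and -0.67 at 18 h (0.0152), both called. H2-DMb1, the near-identical neighbour, had no probe set of its own, so which copy was measured is uncertain.

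**Figure D2:**
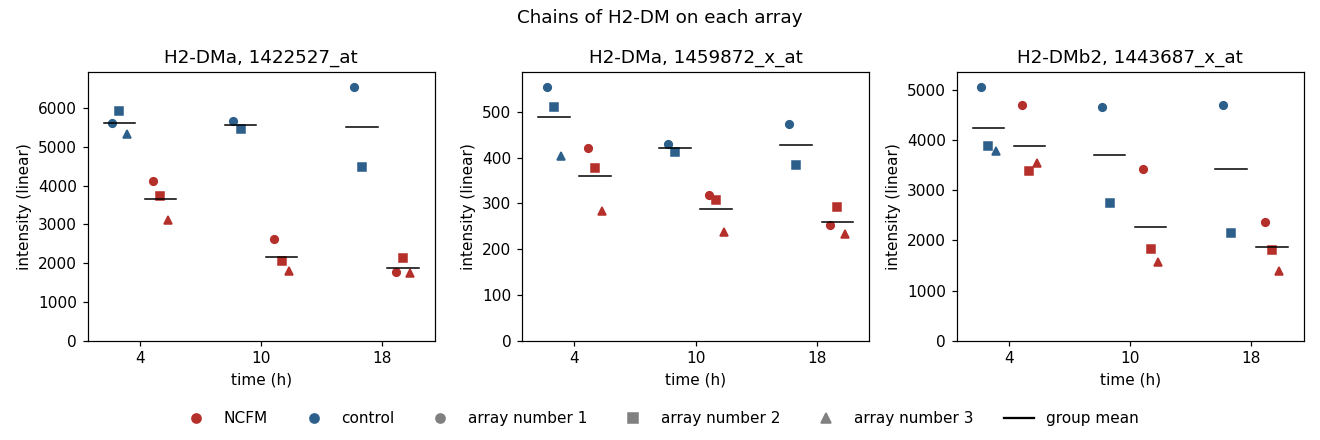
Linear intensity of the 2 probe sets of H2-DMa and of H2-DMb2 on every array, against time, with control in blue, NCFM in red, the array number as the symbol and group means as black lines. Both H2-DMa probe sets are lower with NCFM at 10 and 18 h without overlap, while the circles of array number 1 lie highest in every group for H2-DMb2.

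H2-Oa, the alpha chain of the inhibitor of H2-DM, showed no call. It read 1156, 1475 and 1477 in controls and 1188, 1431 and 1298 with NCFM at 4 h, 1084 and 1205 against 1373, 1213 and 1090 at 10 h, and 1200 and 1175 against 1198, 1163 and 900 at 18 h. The groups overlapped at every time. The change was -0.06 ± 0.13 (SE), 0.09 ± 0.15 and -0.14 ± 0.15, with 95% confidence intervals of -0.35 to 0.22, -0.22 to 0.41 and -0.46 to 0.18. Its beta chain partner, H2-Ob, was dim, at 159 to 464 over all arrays, and was not called against control at any time (changes of 0.07, -0.32 and -0.10). Within NCFM cells H2-Ob was lower at 10 h than at 4 h (-1.19 ± 0.22, limma adjusted p = 0.00773), in control cells the same step was -0.80 and not called, and the difference of the steps was -0.38 ± 0.33 (0.781).

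The chains that form the peptide groove changed little beside H2-DMa on their brightest probe sets, where whether signal is compressed was not tested. H2-Aa, the alpha chain of the I-A molecule, read 15621, 17138 and 17612 in controls and 17168, 16818 and 18074 with NCFM at 4 h. At 10 h it read 15670 and 16659 against 15309, 16798 and 16093, and at 18 h 17649 and 17833 against 17360, 16969 and 15928. The groups overlapped at 4 and 10 h, and at 18 h all NCFM arrays were lower, by a small margin. The change was 0.05 ± 0.06 (SE), -0.01 ± 0.07 and -0.08 ± 0.07 at 4, 10 and 18 h, with an interval of -0.23 to 0.06 at 18 h. The lower end of that interval is a fall of 14.6%. Of its other probe sets, the dimmer 1443783_x_at read 2743, 3567 and 3236 in controls and 2723, 2495 and 2278 with NCFM at 4 h, and 2765 and 3176 against 2548, 2689 and 2630 at 10 h. These arrays were apart at both times and overlapped at 18 h, and its change was -0.34 ± 0.16, -0.18 ± 0.17 and -0.20 ± 0.17, not called (adjusted p = 0.183, 0.523 and 0.497). The remaining 2 probe sets overlapped at each time.

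H2-Ab1, the beta chain of I-A, read 13337, 13623 and 14216 in controls and 12750, 13915 and 15511 with NCFM at 4 h. At 10 h it read 12249 and 13709 against 11292, 12628 and 11934, and at 18 h 14442 and 14958 against 12366, 14081 and 12114. The groups were apart only at 18 h. The change was 0.03 ± 0.08 (SE), -0.12 ± 0.09 and -0.20 ± 0.09 (limma adjusted p = 0.143 at 18 h), and the interval at 18 h reached from -0.39 to 0.0013. Its other probe sets gave -0.31 and -0.29 at 18 h, and neither was called (adjusted p = 0.113 and 0.128).

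H2-Eb1, the beta chain of the I-E molecule, followed H2-Ab1. It read 14454, 15060 and 15656 in controls and 14065, 15148 and 17848 with NCFM at 4 h. At 10 h it read 12130 and 15058 against 13673, 14264 and 12926, and at 18 h 16542 and 15945 against 14369, 15023 and 13674. The change was 0.05 ± 0.09 (SE), 0.01 ± 0.10 and -0.18 ± 0.10, with an interval of -0.41 to 0.05 at 18 h. A fall of up to 24.6% therefore lies within the interval.

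Cd74, the invariant chain, was called only at 18 h. It read 22775, 22005 and 22400 in controls and 24112, 20985 and 23779 with NCFM at 4 h, and 21231 and 21422 against 21954, 20665 and 20613 at 10 h. At 18 h it read 24211 and 22649 against 21129, 19786 and 19181, with no overlap. The change was 0.03 ± 0.06 (SE) at 4 h, -0.02 ± 0.07 at 10 h and -0.23 ± 0.07 at 18 h (limma adjusted p = 0.0286), and the level fell by 14.5%. This call did not hold without control 18 h replicate 1 (-0.18, adjusted p = 0.166) or 2 (-0.27, 0.0505), NCFM 18 h replicate 2 (-0.22, 0.0782) or 3 (-0.20, 0.0896), and without all arrays numbered 1 (-0.22, 0.113).

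Ciita, the coactivator on which class II transcription depends, read lower with NCFM at each time on its brightest probe set, 1421210_at. It read 641, 615 and 678 in controls and 518, 545 and 518 with NCFM at 4 h, 858 and 609 against 662, 534 and 458 at 10 h, and 706 and 509 against 440, 416 and 383 at 18 h. The groups were apart at 4 and 18 h and overlapped at 10 h. The change was -0.29 ± 0.15 (SE) at 4 h (limma adjusted p = 0.226), -0.41 ± 0.17 at 10 h (0.108) and -0.54 ± 0.17 at 18 h (0.0395). The 18 h call was lost in 15 of 29 alternatives, among them leaving out control 18 h replicate 1 (-0.30, adjusted p = 0.307), and in 10 of the 16 fits that left out 1 array the adjusted p lay above the threshold, from 0.0502 up to that 0.307. Leaving out control 10 h replicate 2 or NCFM 10 h replicate 1 brought a call at 10 h (-0.65, 0.0328, and -0.55, 0.0341).

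The other probe sets of Ciita differed from this at 18 h. Probe set 1421211_a_at read 594, 561 and 685 in controls and 459, 386 and 429 with NCFM at 4 h, 775 and 549 against 528, 461 and 450 at 10 h, and 476 and 225 against 358, 390 and 265 at 18 h. The groups were apart at 4 and 10 h and overlapped at 18 h. Its change was -0.53 ± 0.23 (SE; adjusted p = 0.175), -0.45 ± 0.26 (0.268) and 0.03 ± 0.26 (0.961), while the third, 1447075_at, stayed at 102 to 131, under the median of every array. Of the 3 probe sets of Ciita, 1 was called at 18 h.

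Rfx5, the DNA-binding subunit that gives the Rfx complex its name, moved the other way. It read 420, 573 and 612 in controls and 681, 833 and 943 with NCFM at 4 h, 521 and 582 against 755, 743 and 858 at 10 h, and 503 and 594 against 703, 671 and 738 at 18 h. Every NCFM array lay above every control array of its time. The change was 0.62 ± 0.14 (SE) at 4 h (limma adjusted p = 0.0107), 0.51 ± 0.16 at 10 h (0.0372) and 0.36 ± 0.16 at 18 h (0.128), so that the level rose by 53.7% at 4 h and by 42.3% at 10 h. The 10 h call was lost without any one of the 5 arrays of that time: control replicate 1 (0.43, adjusted p = 0.237) or 2 (0.59, 0.0672), or NCFM replicate 1 (0.54, 0.0533), 2 (0.55, 0.0612) or 3 (0.44, 0.117). Array number 1 was lower than its partners for Rfx5 in 6 of 6 groups, by 0.226 on average, and without those arrays the change was 0.58, 0.46 and 0.24 (adjusted p = 0.00625, 0.0364 and 0.187).

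**Figure D3:**
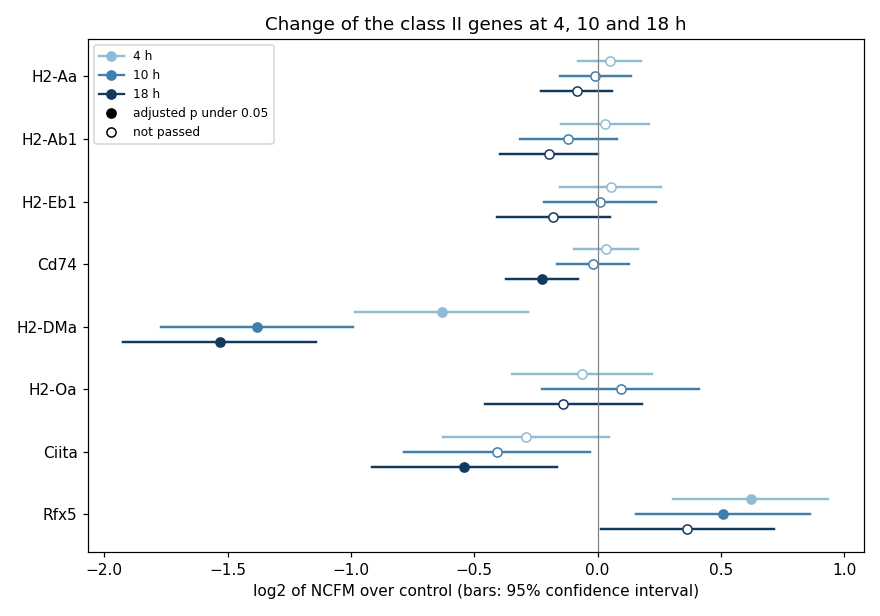
Change of each of the 8 genes as log2 of NCFM over control at 4, 10 and 18 h, from light to dark, with 95% confidence intervals; filled points have an adjusted p under 0.05. H2-DMa lies at -0.63, -1.38 and -1.53 and Rfx5 at 0.62, 0.51 and 0.36, while H2-Aa, H2-Ab1, H2-Eb1 and H2-Oa have open points at all times.

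**Figure D4:**
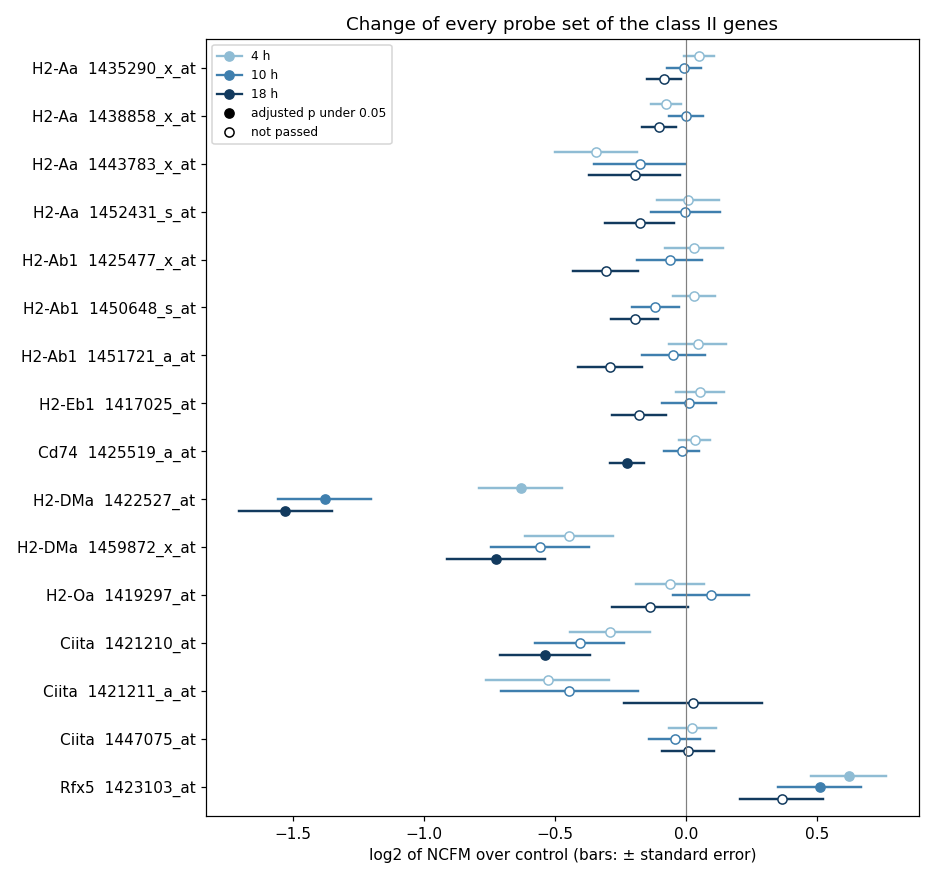
Change of all 16 probe sets of the 8 genes as log2 of NCFM over control at 4, 10 and 18 h, from light to dark, with bars of 1 SE; filled points have an adjusted p under 0.05 over all probe sets. The 2 probe sets of H2-DMa lie below 0 at each time, and the 3 of Ciita part at 18 h, at -0.54, 0.03 and 0.0083.

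Over culture time the 8 genes were compared within control cells and within NCFM cells. In control cells limma called none of the 8 between any times, as it called 0 of the 18193 genes (0%). At an unadjusted p under 0.05 it was 0 of 8 for 10 against 4 h, 1 for 18 against 10 h (H2-Eb1, 0.27 ± 0.11) and 0 for 18 against 4 h, beside 553, 653 and 559 of all genes. H2-DMa stood at -0.01 ± 0.18 (SE) and -0.05 ± 0.18 in controls at 10 and 18 h relative to 4 h, with intervals of -0.41 to 0.38 and -0.44 to 0.34.

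In NCFM cells H2-DMa fell from 4 to 10 h (-0.76 ± 0.16, limma adjusted p = 0.0158), 1 call of 8 where 6.28% of all genes were called. From 10 to 18 h none of the 8 was called, against 2.79% of all genes. At an unadjusted p under 0.05 it was 1 of 8 (Ciita, -0.40 ± 0.15), beside 2673 of all 18193 genes. H2-DMa changed by -0.19 ± 0.16 in that step, with an interval of -0.54 to 0.16. From 4 to 18 h H2-DMa (-0.95 ± 0.16, adjusted p = 0.0017) and Cd74 (-0.20 ± 0.06, 0.0452) fell, 2 of 8 against 16.2% of all genes. The 4 to 10 h call of H2-DMa ended on leaving out NCFM 4 h replicate 1 (-0.67, 0.0548) or 2 (-0.74, 0.0504) or NCFM 10 h replicate 2 (-0.74, 0.067) or 3 (-0.64, 0.0747). The mean of its probe sets gave -0.54 (0.0644). With the array number as a block H2-Ab1 was also lower at 10 h than at 4 h (-0.23, adjusted p = 0.049, against 0.132 without it).

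The NCFM effect itself was compared between 4 and 18 h, as the difference of the 2 changes. For none of the 8 genes did limma call this difference, where 3.4% of all genes were called. Of the 8, 2 had an unadjusted p under 0.05, beside 2837 of all 18193 genes. For H2-DMa it was -0.90 ± 0.24 (SE; adjusted p = 0.0658), and with the array number as a block -0.82 ± 0.20 (0.0252), a call where 9.15% of all genes were called. Leaving out NCFM 10 h replicate 1 (-0.90, 0.041) also gave a call, and so did control 18 h replicate 2 (-1.17, 0.0273). Without the arrays numbered 1 it was smaller, at -0.49 (0.229). For Cd74 it was -0.26 ± 0.09 (0.161). The differences for the remaining genes lay between -0.26 and -0.08.

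Around the 8 genes, 32 further genes of the pathway were measured. At 4 h 3 of 32 rose and 5 fell, at 10 h 3 rose and 4 fell, and at 18 h 5 rose and 3 fell, beside the shares of all genes given above. With the array number as a block the count at 10 h went from 7 to 12, and the added genes, named after their values were seen, were H2-DMb2, Ctsl, Ctsb, Ctsh and Marchf1. For the 3 times that fit called 26.8%, 31.1% and 30.5% of all genes. The median change of the 32 genes was -0.04, 0.04 and -0.02.

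Partners of Rfx5 at the promoter changed in several directions, with 3 of 6 called at 4 h, 2 at 10 h and 3 at 18 h, beside 18.3%, 24.7% and 23.7% of all genes. Rfxap, a subunit of the same complex, read 425, 423 and 408 in controls and 252, 310 and 250 with NCFM at 4 h, 447 and 450 against 272, 299 and 272 at 10 h, and 447 and 393 against 411, 412 and 371 at 18 h. The groups were apart at 4 and 10 h and overlapped at 18 h. The change was -0.64 ± 0.08 (SE; limma adjusted p = 0.000303), -0.68 ± 0.09 (0.000324) and -0.08 ± 0.09 (0.605). Rfxank, the third subunit, read 287, 343 and 335 in controls and 238, 285 and 252 with NCFM at 4 h, and 342 and 392 against 425, 491 and 479 at 18 h. It fell at 4 h (-0.32 ± 0.09, adjusted p = 0.0294), was not called at 10 h (-0.14 ± 0.10) and rose at 18 h (0.34 ± 0.10, 0.0279). The Rfxank call at 4 h did not hold when control 4 h replicate 2 (-0.27, 0.116) or 3 (-0.28, 0.105) was left out, nor for NCFM 4 h replicate 1 (-0.26, 0.101) or 3 (-0.30, 0.0828), and that at 18 h did not hold with control 18 h replicate 1 left out (0.24, 0.194), nor for NCFM 18 h replicate 2 (0.30, 0.0922) or 3 (0.32, 0.076). On the mean of its 3 probe sets Rfxank changed by 0.12 at 18 h (0.146).

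NF-Y subunits, which bind the Y box, parted as well. Nfyc read 962, 1019 and 1043 in controls and 785, 720 and 871 with NCFM at 4 h, 989 and 1024 against 733, 731 and 647 at 10 h, and 974 and 1063 against 723, 679 and 665 at 18 h, apart at every time. It fell at all 3 times (-0.35 ± 0.08, -0.52 ± 0.08 and -0.56 ± 0.08; limma adjusted p = 0.00681, 0.00091 and 0.000549). Nfyb rose at 18 h (0.47 ± 0.14, 0.031), a call that ended when control 18 h replicate 2 was left out (0.27, 0.307), and likewise for NCFM 18 h replicate 1 (0.39, 0.088) or 2 (0.48, 0.0671). Its second probe set, 1419267_at, read 259 and 252 in controls and 258, 251 and 267 with NCFM at 18 h, and the mean of the probe sets gave 0.24 (0.207).

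Among 10 measured regulators of Ciita, 3 rose and 1 fell at each time, where 5.27%, 8.21% and 7.4% of all genes rose and 13.1%, 16.5% and 16.3% fell. Irf1, an interferon-induced activator of a Ciita promoter, read 1483 to 2517 on all control arrays and 3262 to 10670 on all NCFM arrays, and rose by 2.14 ± 0.24 (SE) at 4 h, 1.36 ± 0.26 at 10 h and 1.01 ± 0.26 at 18 h (limma adjusted p = 0.000086, 0.00274 and 0.0153). Socs1, a feedback inhibitor of interferon signalling, read 268 to 710 in controls and 1667 to 3249 with NCFM and rose by 2.75 ± 0.36, 2.18 ± 0.40 and 2.18 ± 0.40 (0.000273, 0.00202 and 0.00203). Neither gene overlapped between NCFM and control arrays. Ifngr1, the ligand-binding chain of the interferon gamma receptor, read 1496 to 3681 in controls and 618 to 1224 with NCFM and fell at each time (-1.21 ± 0.30, -1.52 ± 0.34 and -1.72 ± 0.34; 0.0152, 0.00609 and 0.00306). Jak2, a kinase of that receptor, rose at 4 h (0.69 ± 0.15, 0.00767) and 10 h (0.77 ± 0.17, 0.00576), and Ifngr2, its second chain, rose at 18 h (0.56 ± 0.18, 0.0381). Prdm1, a repressor of Ciita, was not called (0.71, 0.49 and 0.08).

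Several of these calls ended when single arrays were left out. For Irf1 at 18 h this was control 18 h replicate 1 (0.63, adjusted p = 0.156) and also NCFM 18 h replicate 2 (0.96, 0.0501), for Jak2 at 10 h it was control 10 h replicate 2 (0.56, 0.0655), and for Ifngr1 at 10 h the same array (-1.26, 0.0568). For Ifngr1 at 4 h they were control 4 h replicates 2 (-1.16, 0.0563) and 3 (-0.98, 0.0706) and NCFM 4 h replicate 1 (-1.02, 0.0579). That of Ifngr2 ended on leaving out control 4 h replicate 2 (0.56, 0.0517), control 18 h replicate 1 (0.67, 0.0558) or 2 (0.44, 0.234), or NCFM 18 h replicate 1 (0.51, 0.091) or 2 (0.53, 0.0981). With the array number as a block Jak2 was also called at 18 h (0.42, 0.023, against 0.0512 without it).

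Of the genes for turnover of class II at the surface, Marchf8, a ubiquitin ligase that marks class II for degradation, read 861, 914 and 933 in controls and 619, 575 and 622 with NCFM at 4 h, 853 and 786 against 608, 614 and 649 at 10 h, and 680 and 924 against 450, 432 and 519 at 18 h. It fell at each time without overlap (-0.58 ± 0.10, -0.39 ± 0.11 and -0.77 ± 0.11; limma adjusted p = 0.00195, 0.0234 and 0.00048). The 10 h call ended on leaving out any one of control 10 h replicate 1 (-0.33, 0.18), NCFM 10 h replicate 1 (-0.38, 0.0527) and NCFM 10 h replicate 2 (-0.38, 0.0631). It also ended with quantile normalization (-0.20, 0.164) and without the arrays numbered 1 (-0.32, 0.104). Marchf1, the ligase of the same kind in dendritic cells, gave 0.66 ± 0.46, 1.20 ± 0.51 and 1.30 ± 0.51 (0.369, 0.111 and 0.0894). It read lower on array number 1 in 6 of 6 groups, and with the number as a block it was called at each time (0.66, 0.94 and 1.04; adjusted p = 0.0341, 0.00979 and 0.00575). Cd83, which protects class II from Marchf1, was not called (0.61, 0.44 and -0.27).

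None of the 10 listed genes for endosomal proteases, an inhibitor and a reductase was called at any time, with changes between -0.53 and 0.49. Limma gave 0, 2 and 0 of them an unadjusted p under 0.05 at 4, 10 and 18 h. For all 18193 genes these counts were 5650, 6734 and 6452. Ctss, the protease that trims the invariant chain in dendritic cells, changed by -0.08 ± 0.09 (SE), 0.000097 ± 0.10 and 0.07 ± 0.10, and Ifi30, the reductase that opens disulfide bonds of antigens, by -0.28 ± 0.16, -0.32 ± 0.18 and -0.17 ± 0.18. With the array number as a block Ctsh was lower at 4 h (-0.53, adjusted p = 0.000405) and 10 h (-0.43, 0.00276), and Ctsl (0.31, 0.0265) and Ctsb (0.35, 0.03) were higher at 10 h. H2-Eb2, a second I-E beta chain, was not called (0.10, 0.29 and 0.12).

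**Figure D5:**
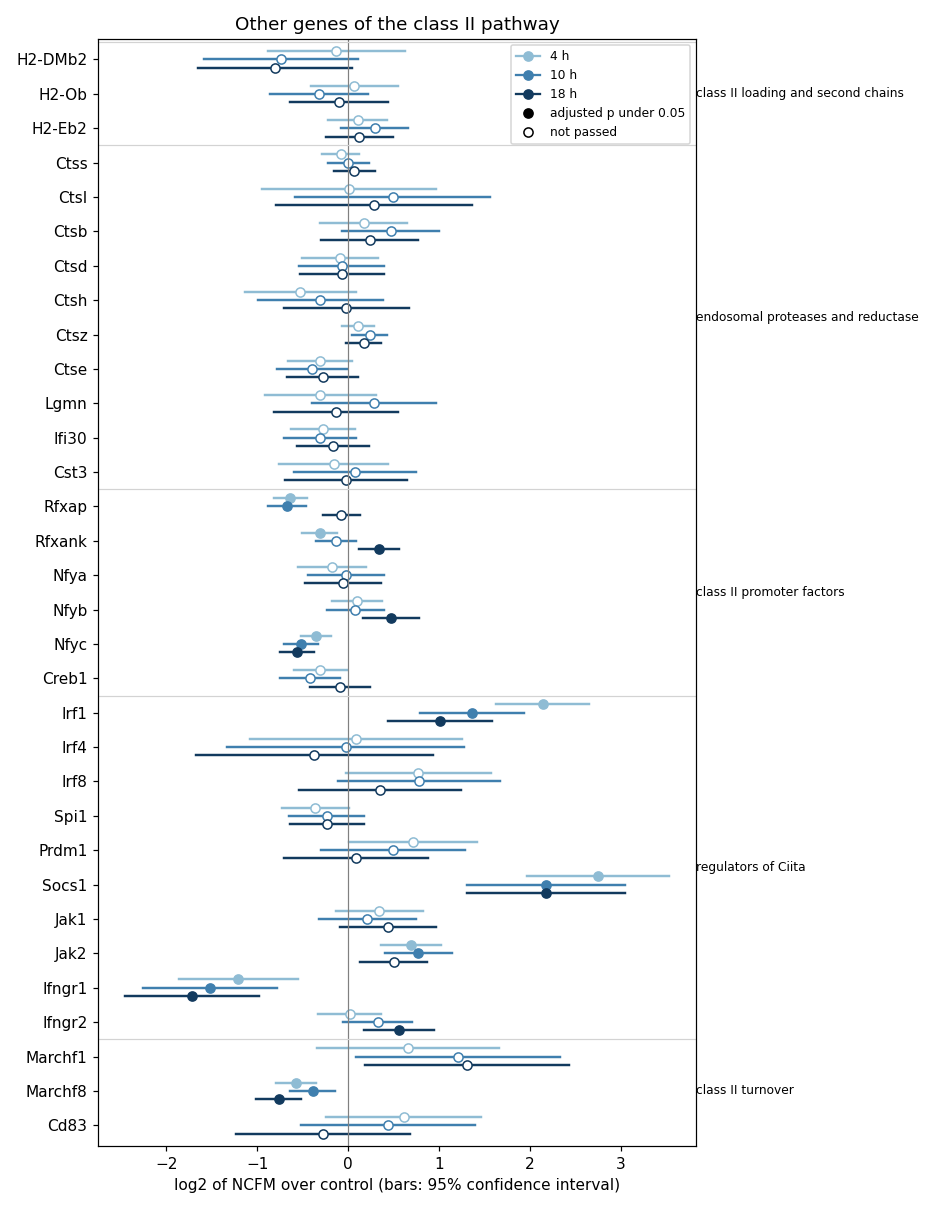
Change of the 32 further pathway genes as log2 of NCFM over control at 4, 10 and 18 h, from light to dark, with 95% confidence intervals, grouped by list; filled points have an adjusted p under 0.05. Socs1 (2.75 at 4 h) and Irf1 (2.14 at 4 h) lie farthest to the right and Ifngr1 (-1.72 at 18 h) farthest to the left, while the proteases have open points only.

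The likeness of array profiles was measured as the root mean square difference of centred log2 values over the 16 arrays, as a description over arrays that share time, treatment and array number. H2-Ab1 and H2-Eb1 were each nearest to the other of all 18192 genes compared, at 0.0628, and H2-Aa stood at rank 6 for H2-Ab1 (0.082) and rank 4 for H2-Eb1 (0.0859). H2-DMa lay far from these chains, at 0.636 to 0.676. The genes outside the pathway nearest to H2-DMa were Bri3bp (0.144), Phb2 (0.152) and Qdpr (0.17), and those nearest to Rfx5 were Ist1 (0.0898), Ppm1b (0.115) and Ap3b1 (0.123). Ciita was nearest to Rps3, Dnajc24 and Etfa (0.133 to 0.14) and H2-Oa to 4933440N22Rik, Ankra2 and Mfhas1 (0.124 to 0.129). Nearest to Cd74 were Cabp5, Cuzd1 and Polr3d, to H2-Aa C230034O21Rik, Hjv and Ltbp2, to H2-Ab1 Porcn, Btbd3 and Exoc6, and to H2-Eb1 4930432J09Rik, 4930422I22Rik and Polr3d. Profiles that vary little over the arrays lie near each other by this measure whatever their shape.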

How the data were processed

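The deposited table holds 1 intensity per probe set and array, as linear whole numbers; array medians lay close together as deposited. Per the labels, biotin-labelled RNA was hybridised. The summarisation, background correction and normalization are not given in the sources used here. Intensities were taken to log2. A gene was represented by its brightest probe set on average, among 34945 probe sets with 1 gene symbol. Another 932 name several genes, 9160 are unlisted and 64 are controls.

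A mean per group was fitted over all 16 arrays with limma 3.58.1 (R 4.3.3, lmFit and eBayes, 10 residual degrees of freedom), two-sided, with Benjamini-Hochberg adjustment over 18193 genes, and checked on simulated data. Figures were drawn with matplotlib 3.10.9 under Python 3.11.15.

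Array numbers were taken as pairing the samples, from the data, in the block fit only, and the main fit left the pairing out. Deviations from group means correlated in all 36 same-number pairs (0.192 to 0.746, median 0.42). In 70 others they ran from -0.746 to 0.726, with a median of -0.318, so the 2 ranges overlap. Deviations from a group mean cancel within every group, so negative values between different numbers are partly built in and are no separate support for the pairing. The 2 deviations of a control group of 2 mirror each other.

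The members and lists were chosen with earlier results of these data known. Named genes are the members with all probe sets, listed pathway genes (up to 3 called per direction and list, and further listed names), and the 3 nearest profiles per member. Alternatives were the number as a block, other normalizations, background subtraction, a pseudocount of 16, other probe set rules, dim genes left out, another variance model, only the groups compared, a cutoff of 0.01, and arrays left out.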

Additional observations from a re-analysis of the deposited data

Results flagged for a closer look

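The NCFM effect on Rfxap and on Rfxank differed between 4 and 18 h by the limma test of the difference itself. For Rfxap the effect at 18 h minus that at 4 h was 0.56 ± 0.13 (SE; adjusted p = 0.0327), and for Rfxank it was 0.658 ± 0.14 (0.0212). The Rfxap call was lost in 12 and the Rfxank call in 7 of 28 alternatives, and both were lost when probe sets of a gene were averaged (0.23, adjusted p = 0.139, and 0.29, 0.0633). The second Rfxap probe set, 1455303_at, read 141 to 164 with NCFM and 187 to 219 in controls at 4 h, and 156 to 181 against 205 to 268 at 18 h. The other Rfxank probe sets stayed between 160 and 199 and between 254 and 293 on all 16 arrays. No group had more than 3 arrays, so no sample was tested as an outlier.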

How the results depend on the processing

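Signs and calls of H2-DMa at 10 and 18 h held under all 29 alternatives, and no called value changed sign. At a cutoff of 0.01 the called members were 0 at 4 h, 1 at 10 h and 1 at 18 h, and the pathway genes called at 18 h were 4. Of all 18193 genes, 1713, 2585 and 2416 passed that cutoff at the 3 times, fewer than at 0.05. With only the groups compared, 2449 of all genes were called at 18 h, against 4320 in the main fit. At 18 h 1 member was called when only the groups compared were fitted and 1 without the arrays numbered 1. Leaving out each array in turn gave 1 to 2 members at 4 h, 1 to 2 at 10 h and 1 to 3 at 18 h, 4 to 9 pathway genes at 18 h (4 without NCFM 18 h replicate 2, 5 without control 18 h replicate 1), and 0 to 1 members for the difference between 4 and 18 h. That difference had 1 member with the replicate block (H2-DMa), 1 with quantile normalization (Cd74, -0.32, adjusted p = 0.0417), and 1 with spike-in centring and 1 with dim genes left out (H2-DMa). The pathway genes called at 10 h were 12 with the replicate block and 12 without the arrays numbered 1. For the members, the replicate block changed no call beyond those given. Centring on 45 spike-in probe sets moved the median of all genes at 10 h to -0.117; there H2-DMa stood at -1.51 and Rfx5 at 0.38 (0.107), and Ciita was called (-0.53, 0.0478). Rfx5 lost its 4 h call with only the groups compared (0.0715) and gained one at 18 h with quantile normalization (0.58, 0.0133). Ciita lost its 18 h call with quantile normalization (-0.35, 0.157) and on the mean of its probe sets (-0.17, 0.447), and Cd74 lost its own with an intensity trend and robust variance (0.223). Controls of 2 arrays limit the 10 and 18 h comparisons. The brightest members read up to 24211, where array maxima were 27277 to 31573, and whether signal is compressed there was not tested.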

Other observations

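H2-Ea, the alpha chain of I-E, was added after the data were seen, because C57BL/6 mice are known to carry a defective copy. Its probe sets read 545 to 681, 93 to 111 and 67 to 80 on all 16 arrays, the last 2 under the median of every array. H2-Eb1, whose protein pairs with it, read 12130 to 17848.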
